A study of Bos taurus with 8 samples.

Results

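The genes described here are the nuclear genes of the mitochondrial respiratory chain and ATP synthase. They were chosen by name, as the genes whose symbol begins with NDUFA, NDUFB, NDUFC, NDUFS, NDUFV, UQCR, COX4, COX5, COX6, COX7, COX8 or ATP5, together with *SDHA*, *SDHB*, *SDHC*, *SDHD* and *CYC1*. This rule found 86 of the 24596 genes counted, and none of them was found through a row without a name. Articular cartilage was taken from knee joints of wild-type calves aged 1 to 2 weeks. Chondrocytes of the superficial zone (SZCs) and of the deep zone (DZCs) were kept in DMEM/F12 with serum for 3 days. Libraries for sequencing were then made from total RNA. There were 2 libraries for each zone, without any further treatment. Both zones were cut from the same cartilage cores and the cells were pooled by joint, so a library is a mixture of the cells of 1 zone, and fewer cells of a type cannot be told apart from less RNA per cell. The study's methods call the 2 libraries of a zone biological duplicates, and the sources do not say whether libraries of the same number came from the same joint.

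Oxidative phosphorylation passes electrons from NADH and succinate through complexes I and II, then complex III and cytochrome *c*, to oxygen at complex IV, and complex V uses the proton gradient that results to make ATP. Most subunits are encoded in the nucleus and imported, and a small set of core subunits is encoded by mitochondrial DNA. Chondrocytes live in tissue without blood vessels and are known for making much of their ATP by glycolysis. Several complex IV subunits have a second gene that is used mainly in muscle, testis or low oxygen.

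Library totals ranged from 19918970 to 21890549 counts. Levels are given as CPM (counts relative to the scaled library total), with scaling by the trimmed mean of *M* values (TMM), and the floor used here, 3 counts, corresponded to 0.129 to 0.187 CPM. The labels were checked with *PRG4*, which encodes lubricin and was at 3166 and 2024 CPM in the SZC libraries against 15.3 and 61.5 CPM in the DZC libraries. All 7 chondrocyte markers listed were detected and tested, and all had log2 fold changes (SZC over DZC) below 0. DZC replicate 1 was the highest library for 6 of the 7, with summed levels of 118300 and 118900 CPM in SZCs and 473600 and 183600 CPM in DZCs, and 1 of them, *MATN3*, was called (2.93% of all genes). Of 7 immune, endothelial and blood markers 4 were tested and 0 called. They summed to 18.1 and 29.0 CPM in SZCs and to 9.46 and 16.1 CPM in DZCs, *HBB* was at 0 in every library, and *CD14* had the highest log2 fold change, 1.41 (edgeR exact test FDR 0.142). DZC replicate 1 stood apart in its composition, since *COL2A1* took 24.5% of its counts (95% Wilson interval 24.45% to 24.49%, counting error only), against 12.9% in DZC replicate 2 and 6.31% to 7.18% in the SZC libraries. Its TMM factor was 0.735, against 1.08 to 1.14 in the other libraries. Bone and hypertrophy markers summed to 0.187 CPM in DZC replicate 1 and 69.2 CPM in DZC replicate 2, and to 1.91 and 1.47 CPM in the SZC libraries.

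Of the 86 genes, 84 passed the filter on low counts and were tested. None was called different between the zones by edgeR's exact test at a false discovery rate (FDR) of 0.05, against 2.93% of the 12857 genes tested. At an unadjusted p below 0.05 there were 3 genes, *UQCRFS1*, *NDUFA13* and *UQCR11*, all higher in DZCs, where 3.01% of all genes met that condition in that direction and 9.09% in either. DESeq2 also called 0 of the 84 (3.09% of all genes), with 2 at an unadjusted p below 0.05 (9.08% of all genes). In edgeR's quasi-likelihood test 0 of the 84 and 0 of all genes were called, with 2 of the 84 at an unadjusted p below 0.05 (8.76% of all genes). Adding the replicate number as a block to that test gave 0 calls among the 84 (2.70% of all genes), with 6 at an unadjusted p below 0.05 (12.8% of all genes). The lowest FDR in the exact test was 0.402, for *UQCRFS1*. The 95% intervals of the log2 fold changes had a median half-width of 0.80, and 12 of the 84 intervals lay wholly within 1 of 0 on the log2 scale. For the other genes a 2-fold difference between the zones was not shown to be absent. The p-values measure the spread between these libraries only.

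The log2 fold changes (SZC over DZC) nevertheless lay on one side. They were below 0, that is higher in DZCs, for 82 of the 84 genes, against 53.4% of all genes tested, and for 52 of the 84 with library totals in place of TMM, where the median of all genes was 0.26. Their median was -0.44, beside -0.04 over all genes tested. Both DZC libraries were above both SZC libraries for 40 of the 84 genes (47.6%, against 20.5% of all genes), and the reverse held for 0 genes (against 21.0%). The size of the difference depended on DZC replicate 1. That library was the highest of the 4 libraries for 74 of the 84 genes (88.1%, against 36.3% of all genes), it was above DZC replicate 2 for 90.5% (against 49.0%), and the median log2 ratio of DZC replicate 1 to DZC replicate 2 was 0.62, against 0.05 for SZC replicate 1 to SZC replicate 2. Without DZC replicate 1 the median log2 fold change of the 84 genes was -0.04, with 36 genes above 0, and the median over all genes was 0.01. Without DZC replicate 2 it was -0.66. Scaling mattered as well. With library totals in place of TMM, the median over all genes shifted by 0.30, and the median of the 84 genes was -0.05, which is -0.31 relative to all genes, against -0.40 with TMM. The part of the *COL2A1* share and of the chondrocyte, immune, and bone and hypertrophy markers in the high values of DZC replicate 1 was not tested.

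**Figure D1:**
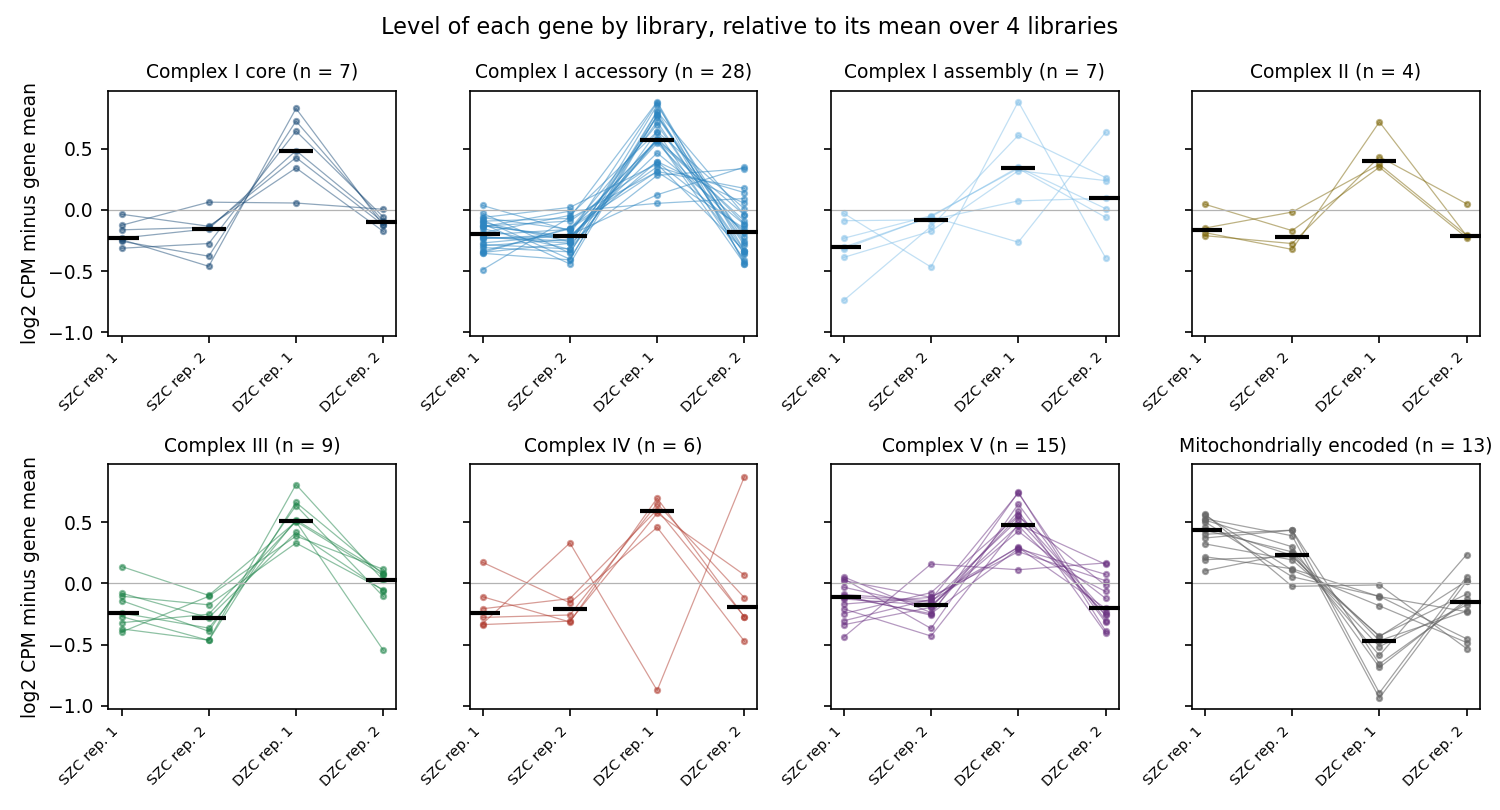
Level of each tested gene in the 4 libraries, as log2 CPM minus the gene's mean over the libraries, by complex, with 1 line per gene and black bars at the medians. The last panel shows the 13 subunits encoded by mitochondrial DNA. In complexes I to V the median of DZC replicate 1 is the highest, and among the mitochondrially encoded genes it is the lowest.

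Complex I, the NADH dehydrogenase, contributed 35 subunits, of which 7 are core subunits that carry the electrons and 28 are accessory subunits. All 35 had a log2 fold change below 0, with a median of -0.49, which was -0.04 without DZC replicate 1 and -0.15 with library totals, and 0 were called. Both DZC libraries were above both SZC libraries for 18 of them (against 20.5% of all genes). Among the core subunits, *NDUFS8*, which holds iron-sulphur clusters on the path to ubiquinone, had the lowest log2 fold change. It had 755 and 684 counts in SZCs against 1160 and 829 in DZCs, or 31.9 ± 3.4 CPM (SD, n = 2) and 54.7 ± 24.8 CPM (SD, n = 2). The zones did not overlap, but the DZC libraries differed from each other 1.94-fold, and the log2 fold change of -0.78 (standard error, SE, 0.44) gave an edgeR exact test FDR of 0.676. *NDUFV1*, which binds NADH and the flavin, was similar, with 36.8 and 33.8 CPM in SZCs and 72.8 and 41.2 CPM in DZCs and a log2 fold change of -0.69. *NDUFS1*, the largest iron-sulphur subunit, differed least, with 36.3 and 41.4 CPM in SZCs and 41.2 and 39.8 CPM in DZCs. Here the log2 fold change was -0.06, with a 95% interval of -0.72 to 0.60.

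Of the 28 accessory subunits, which surround the core and stabilize it, *NDUFA13* had the lowest log2 fold change. It was at 51.2 and 49.3 CPM in SZCs, against 114 and 63.6 CPM in DZCs. Both DZC values were higher, and DZC replicate 1 was 1.80-fold above DZC replicate 2. The log2 fold change was -0.82 (SE 0.41, edgeR exact test FDR 0.535), and it was -0.34 without DZC replicate 1. *NDUFB10*, with the most counts among the accessory subunits, was at 78.7 and 62.7 CPM in SZCs and at 140 and 59.5 CPM in DZCs. DZC replicate 2 was thus the lowest library for this gene and DZC replicate 1 the highest. *NDUFA12* differed least in this group, with 8.18 and 8.66 CPM in SZCs, 11.1 and 6.77 CPM in DZCs and a log2 fold change of -0.08. In 3 accessory subunits DZC replicate 1 was not above DZC replicate 2, namely *NDUFA10* (28.3 and 33.1 CPM), *NDUFA5* (21.0 and 21.8 CPM) and *NDUFB3* (19.4 and 19.9 CPM), which were named after their values were seen. For all 3 both DZC libraries were above both SZC libraries, which held for 13 of the 28 accessory subunits (20.5% of all genes). The difference was small for *NDUFB3*, with a log2 fold change of -0.15. *NDUFA5* had a log2 fold change of -0.62 (edgeR exact test FDR 0.726), which ranged from -0.66 to -0.57 when single libraries were left out.

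The name rule also takes in 7 assembly factors of complex I, which help to build the complex and are not part of it. All 7 had log2 fold changes below 0, with a median of -0.44, which was -0.18 without DZC replicate 1 and -0.20 with library totals, and 0 were called. *NDUFAF2*, a paralogue of the subunit *NDUFA12*, had 58 and 93 counts in SZCs against 108 and 118 in DZCs. The fitted log2 fold change was -0.85 (SE 0.56, edgeR exact test FDR 0.808), and it lay between -1.18 and -0.58 with single libraries left out. *NDUFAF1*, a chaperone of the membrane arm, was at 8.45 and 8.49 CPM in SZCs and at 9.46 and 9.59 CPM in DZCs. Replicates of this gene differed little in either zone, and its log2 fold change was -0.17. *NDUFAF3* had the most counts of these factors, at 22.1 and 16.3 CPM in SZCs and 41.6 and 17.2 CPM in DZCs, so that its values overlapped.

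**Figure D2:**
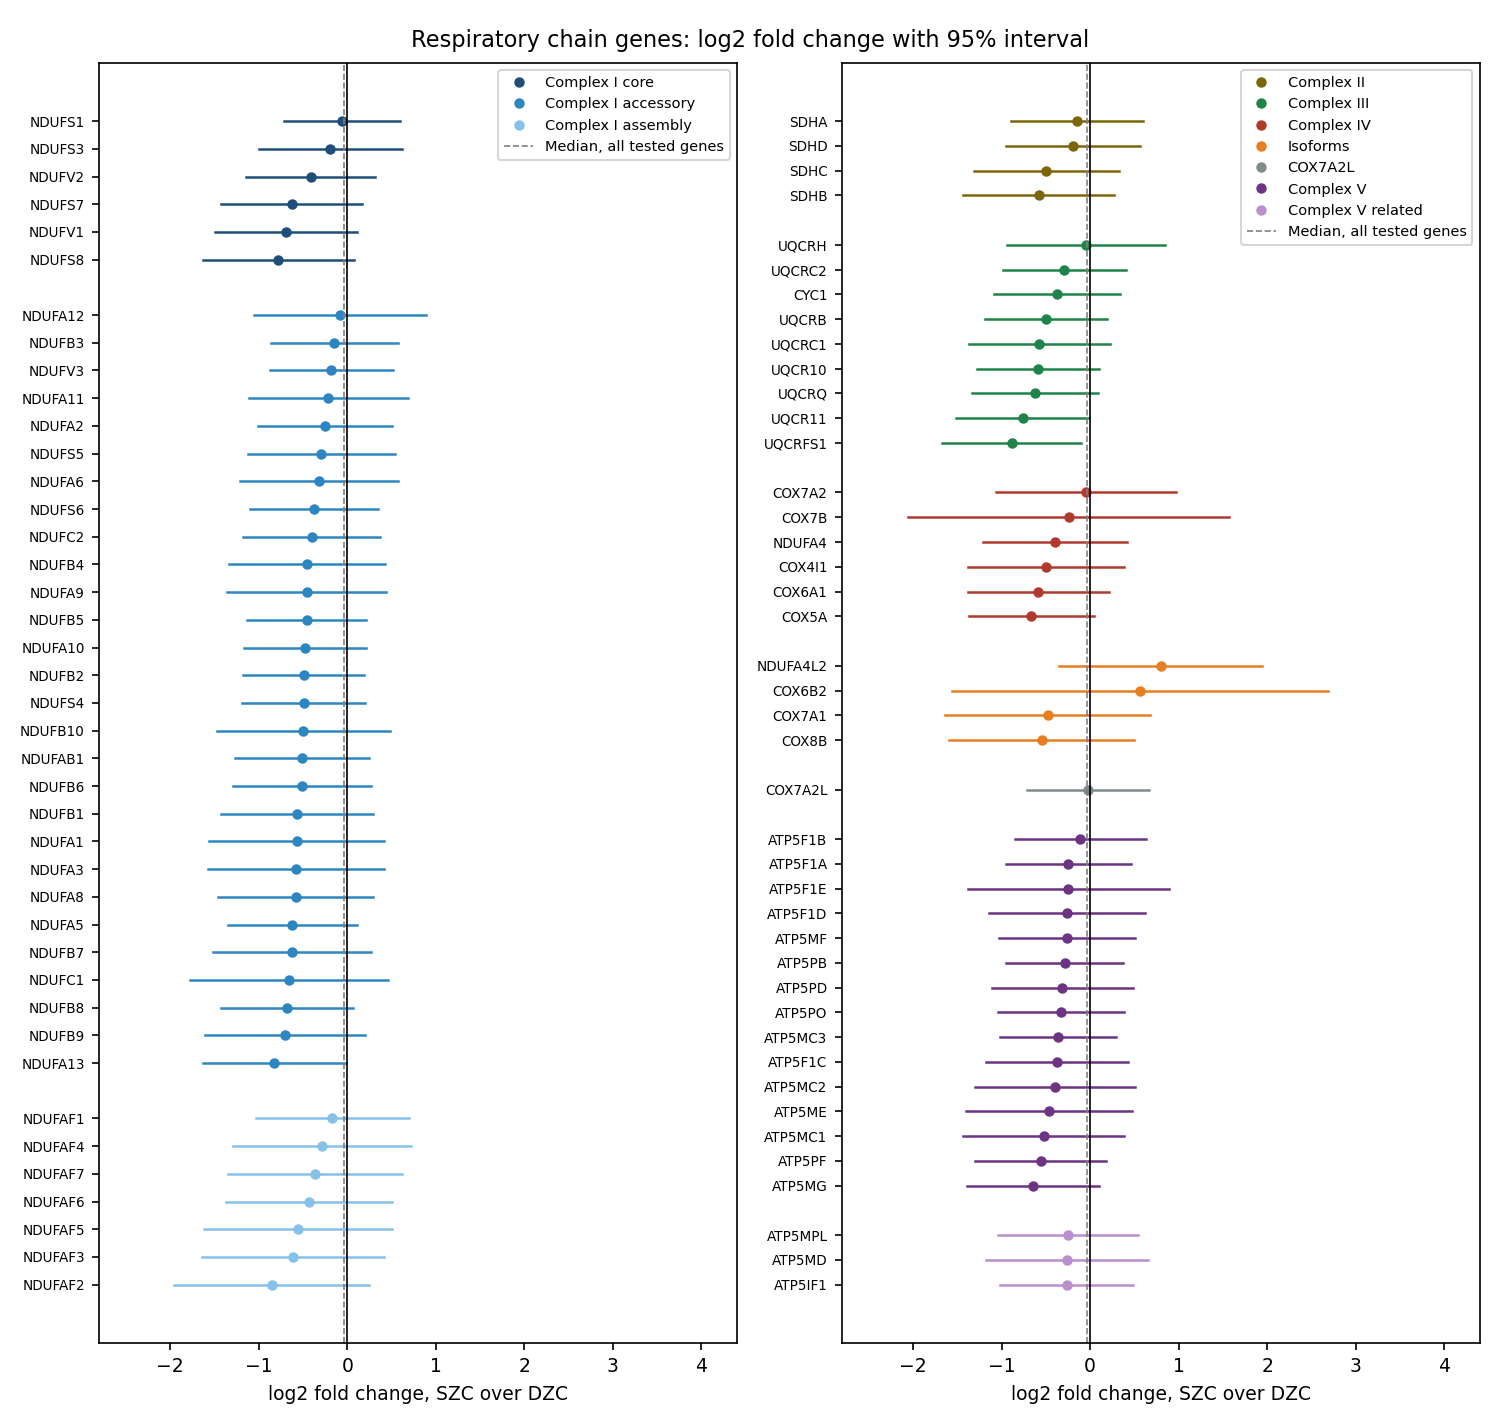
Log2 fold change of SZCs over DZCs for the tested genes, of which 1 is not drawn, with 95% intervals from the negative binomial model, ordered within each complex. The solid line is at 0 and the dashed line at the median of all genes tested, -0.04. Only *COX6B2* and *NDUFA4L2* lie above 0, and the intervals of *UQCRFS1*, *NDUFA13* and *UQCR11* leave out 0 while their FDR values are 0.402 to 0.542.

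Complex II, succinate dehydrogenase, which is also an enzyme of the citric acid cycle, has 4 subunits, all of nuclear origin. Their median log2 fold change was -0.34, which was 0.045 without DZC replicate 1 and 0.004 with library totals. *SDHA*, the flavoprotein, was at 120 and 103 CPM in SZCs and at 148 and 98.9 CPM in DZCs, with a log2 fold change of -0.15. *SDHB*, which holds the iron-sulphur clusters, was at 114 and 104 CPM in SZCs and at 215 and 112 CPM in DZCs. Here DZC replicate 2 lay between the SZC libraries and DZC replicate 1 was 1.91-fold above it. The log2 fold change of *SDHB* was -0.58 (SE 0.44, edgeR exact test FDR 0.861), and it was -0.04 without DZC replicate 1. The membrane anchors *SDHC* and *SDHD* had log2 fold changes of -0.50 and -0.19. With library totals *SDHA* and *SDHD* turned above 0, at 0.21 and 0.17. *SDHC* was at 10.8 and 10.3 CPM in SZCs and at 16.9 and 13 CPM in DZCs, and was the only 1 of the 4 subunits of complex II in which the zones did not overlap (20.5% of all genes in this direction).

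Complex III, ubiquinol–cytochrome *c* reductase, had a median log2 fold change of -0.57 over 9 genes. Both DZC libraries were above both SZC libraries for 8 of the 9 (against 20.5% of all genes), and the median was -0.35 without DZC replicate 1 and -0.20 with library totals. *UQCRFS1*, the Rieske iron-sulphur protein, had 820 and 811 counts in SZCs against 1358 and 1095 in DZCs, or 36.1 ± 1.6 CPM and 66.8 ± 25 CPM (SD, n = 2). Both DZC libraries were higher in counts as well as in CPM. Its log2 fold change of -0.89 (SE 0.40) was the lowest of all 84 genes, and it was not called (edgeR exact test FDR 0.402). It was -0.44 without DZC replicate 1 and -0.51 with library totals. *UQCR11*, a small subunit of the membrane part, was at 24.7 and 21.6 CPM in SZCs and at 47.2 and 31.4 CPM in DZCs. The log2 fold change was -0.76 (SE 0.38, edgeR exact test FDR 0.542). *CYC1*, which encodes cytochrome *c*1, was at 49.9 and 43.4 CPM in SZCs and at 70.5 and 50.7 CPM in DZCs. Its zones did not overlap, although DZC replicate 2 exceeded SZC replicate 1 by little, and its log2 fold change was -0.38. *UQCRC1*, a core protein with the most counts of the complex, had a log2 fold change of -0.57. *UQCRH*, the hinge protein that binds cytochrome *c*1, was the exception of the 9, at 81.9 and 69.5 CPM in SZCs and 106 and 50.9 CPM in DZCs, with a log2 fold change of -0.05.

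Complex IV, cytochrome *c* oxidase, was represented by 6 genes used in most tissues, of which *NDUFA4* was first described as a subunit of complex I and is now placed in complex IV. Their median log2 fold change was -0.45, which was -0.04 without DZC replicate 1 and -0.07 with library totals, and 0 were called. *COX5A* was at 36.2 and 36.9 CPM in SZCs and at 68.1 and 47.9 CPM in DZCs, without overlap. It had the lowest log2 fold change of the complex, -0.67 (SE 0.36, edgeR exact test FDR 0.632). *COX4I1*, the usual form of subunit 4, was at 184 and 159 CPM in SZCs and at 321 and 164 CPM in DZCs, where DZC replicate 2 again lay between the SZC libraries. *COX6A1* was at 94.5 and 95.9 CPM in SZCs and at 180 and 106 CPM in DZCs, with a log2 fold change of -0.59. *COX7A2* was at 11.2 and 8.92 CPM in SZCs and at 13.7 and 7.17 CPM in DZCs, with a log2 fold change of -0.05. *COX7B* was counted only 3 to 14 times per library. Genes of this kind are known for processed copies elsewhere in the genome, and how the authors' counting treated reads that match several places is not given in the sources used here, so the levels of *COX7B* and *COX7A2* are uncertain. The median of this complex covers 6 of 11 listed subunits, since *COX5B*, *COX6B1*, *COX6C*, *COX7C* and *COX8A* were not matched by name and were not analysed here.

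*NDUFA4L2*, a paralogue of *NDUFA4* that is known as a target of the hypoxia-inducible factor HIF-1, was, with *COX6B2*, 1 of the 2 genes with a log2 fold change above 0. It had 28154 and 17750 counts in SZCs against 13771 and 7160 in DZCs, or 1279 and 765 CPM against 857 and 321 CPM. In CPM the value of DZC replicate 1 lay between the SZC values, so the zones overlapped, while the counts themselves and the values scaled by library totals did not overlap. The log2 fold change was 0.80 (SE 0.59, 95% interval -0.35 to 1.94), and the edgeR exact test FDR was 0.857. It was above 0 whichever library was left out and under the 4 scalings tried, but its size depended on the library, from 0.28 without DZC replicate 2 to 1.67 without DZC replicate 1. With library totals it was 1.22 and the FDR was 0.305. The ratio of *NDUFA4L2* to *NDUFA4* within a library does not depend on scaling. It was 22.2 and 12.5 in SZCs, against 8.48 and 5.83 in DZCs, so that both SZC values were above both DZC values. Counts were not divided by gene length, so only the difference of this ratio between libraries can be read. No test was made of this ratio.

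**Figure D3:**
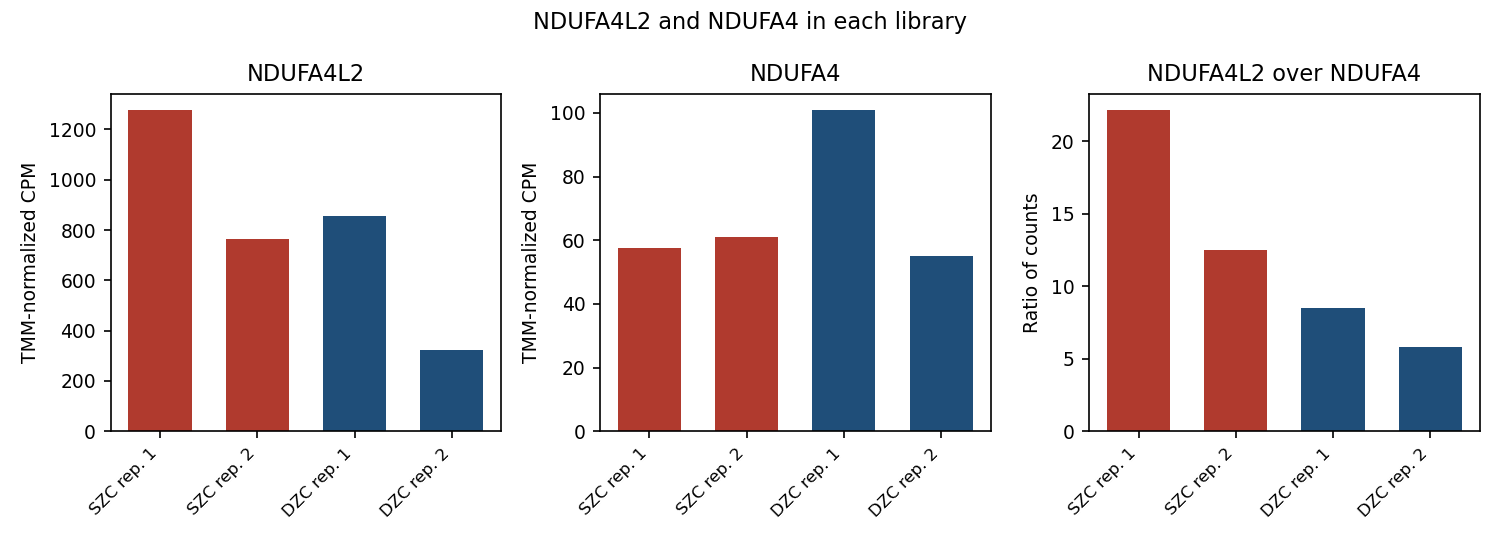
TMM-normalized CPM of *NDUFA4L2* and *NDUFA4* in each library and the ratio of their counts, with 1 bar per library, SZCs in red and DZCs in blue. The ratio is 22.2 and 12.5 in SZCs and 8.48 and 5.83 in DZCs, while the CPM of *NDUFA4L2* in DZC replicate 1 lies between the SZC values.

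Of the other second genes of complex IV, 2 gave almost no counts. *COX6A2*, the form of heart and skeletal muscle, had 0 counts in all 4 libraries and *COX4I2*, a form regulated by oxygen, had 1 and 6 counts in SZCs and 0 and 10 in DZCs. These are the 2 genes that the filter left out. A count of 0 allows up to 0.129 to 0.187 CPM. In SZC replicate 1 there was 1 count of *COX4I2* to 4040 of *COX4I1*. By counts *COX4I2* was at most 0.00058 of *COX4I1* in DZC replicate 1, and it was 0.0016 and 0.0027 of it in SZC replicate 2 and DZC replicate 2. *COX7A1*, a muscle form, had 208 and 194 counts in SZCs against 290 and 152 in DZCs. Its ratio to *COX7A2* was 0.842 and 0.937 in SZCs and 1.32 and 0.95 in DZCs. The zones did not overlap, but SZC replicate 2 and DZC replicate 2 lay close together. The level of *COX7A2* is uncertain, as said above, and the ratio was not tested. *COX8B*, also known from muscle, was at 7.54 and 6.46 CPM in SZCs and at 13.5 and 6.99 CPM in DZCs, with a log2 fold change of -0.55 (edgeR exact test FDR 0.962). *COX6B2*, a form of testis, had 2 to 19 counts per library and a log2 fold change of 0.56 with a 95% interval of -1.57 to 2.69. Of 12 muscle markers, 4 passed the filter and 0 were called. The 12 summed to 44.2 and 27.8 CPM in SZCs and to 32.1 and 27.9 CPM in DZCs. The sum included *TNNI2*, a fast muscle troponin, at 31.3 and 14.8 CPM in SZCs and 25 and 11.2 CPM in DZCs, *TNNT3* at 3.42 to 10.8 CPM and *DES* at 2.12 to 5.64 CPM, while *MYH1*, *MYOG* and *MYOD1* were at 0 in every library. *COX7A2L*, which joins complexes III and IV into larger assemblies, was at 86.5 and 102 CPM in SZCs and at 106 and 86.1 CPM in DZCs. Its log2 fold change of -0.02 was the closest to 0 of the 84 genes, with a 95% interval of -0.71 to 0.67.

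Complex V, the ATP synthase, had 15 subunit genes with a median log2 fold change of -0.33, which was 0.08 without DZC replicate 1 and 0.02 with library totals, and 0 were called. Both DZC libraries were above both SZC libraries for 6 of the 15 (against 20.5% of all genes). *ATP5F1B*, the catalytic beta subunit, had 5784 and 5547 counts in SZCs against 5096 and 5007 in DZCs, or 263 and 239 CPM against 317 and 224 CPM. Its counts were lower in both DZC libraries, while in CPM the DZC values lay on either side of the SZC values. The log2 fold change was -0.11 with TMM, with a 95% interval of -0.85 to 0.63. *ATP5MG*, subunit g of the membrane part, was at 16.1 and 13.8 CPM in SZCs and at 25.9 and 20.7 CPM in DZCs. It had the lowest log2 fold change of the complex, -0.64 (SE 0.38, edgeR exact test FDR 0.717), which was -0.47 without DZC replicate 1. Subunit c, the proton-carrying ring, is made from 3 genes that give the same mature protein, and their log2 fold changes were -0.52 for *ATP5MC1*, -0.40 for *ATP5MC2* and -0.36 for *ATP5MC3*. *ATP5MC3* did not overlap between the zones, at 61.1 and 55.6 CPM in SZCs and at 80.3 and 69.5 CPM in DZCs. *ATP5F1E*, the epsilon subunit, had only 57 to 91 counts per library and a log2 fold change of -0.25.

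Of the 3 other genes named for complex V, *ATP5IF1* encodes the inhibitor that stops the enzyme from running in reverse. It was at 66.2 and 61.0 CPM in SZCs and at 93.7 and 59.1 CPM in DZCs, with a log2 fold change of -0.27. *ATP5MD* and *ATP5MPL*, small proteins of the membrane part, had log2 fold changes of -0.26 and -0.25. The median of these 3 genes was -0.26, which was 0.11 without DZC replicate 1 and 0.10 with library totals. Over the groups with more than 1 gene, the medians of complexes I to V lay between -0.57 for complex III and -0.33 for complex V. Without DZC replicate 1 they lay between -0.35 for complex III and 0.08 for complex V, so complex III was the group whose median stayed farthest from 0.

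The 13 subunits encoded by mitochondrial DNA, which assemble with these nuclear subunits, lay on the other side. All 13 had log2 fold changes above 0, from 0.30 for *MT-ND2* to 0.84 for *ND5*, with a median of 0.68. None was called by edgeR's exact test (2.93% of all genes), and 1 was at an unadjusted p below 0.05 (9.09% of all genes). That gene was *MT-ND4L*, at 215 and 224 CPM in SZCs and 105 and 150 CPM in DZCs, with a log2 fold change of 0.79 (SE 0.37, edgeR exact test FDR 0.463). Both SZC libraries were above both DZC libraries for 11 of the 13, where *MT-ND2* and *MT-ND3* overlapped (21.0% of all genes did not overlap in this direction). The 13 genes are cut from shared transcripts and are not independent of each other. *COX1*, a catalytic subunit of complex IV, was at 7856 and 5750 CPM in SZCs and at 4699 and 3815 CPM in DZCs, with a log2 fold change of 0.68 (edgeR exact test FDR 0.756). The median ranged from 0.44 to 0.79 when single libraries were left out and was 0.96 with library totals.

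As shares of the library total, the 13 mitochondrially encoded genes took 2.71% and 2.32% of the counts in SZCs and 1.04% and 1.66% in DZCs, so that both SZC libraries were higher. The nuclear genes without *NDUFA4L2* took 0.419% (95% Wilson interval 0.416% to 0.422%, counting error only) and 0.408% (0.405% to 0.410%) in SZCs and 0.441% (0.438% to 0.444%) and 0.404% (0.401% to 0.407%) in DZCs. The zones overlapped for this share, but not with *COL2A1* left out of the totals, where it was 0.452% and 0.435% in SZCs and 0.584% and 0.464% in DZCs. Counts of the mitochondrially encoded genes were 6.47 and 5.69 times those of the nuclear genes without *NDUFA4L2* in SZCs and 2.37 and 4.12 times in DZCs. The ratio was higher in both SZC libraries, and it differed more between the DZC libraries than between the SZC libraries. With *COL2A1* left out of the totals the mitochondrially encoded genes took 2.92% and 2.48% in SZCs and 1.38% and 1.91% in DZCs, and *COL2A1* does not enter the ratio.

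**Figure D4:**
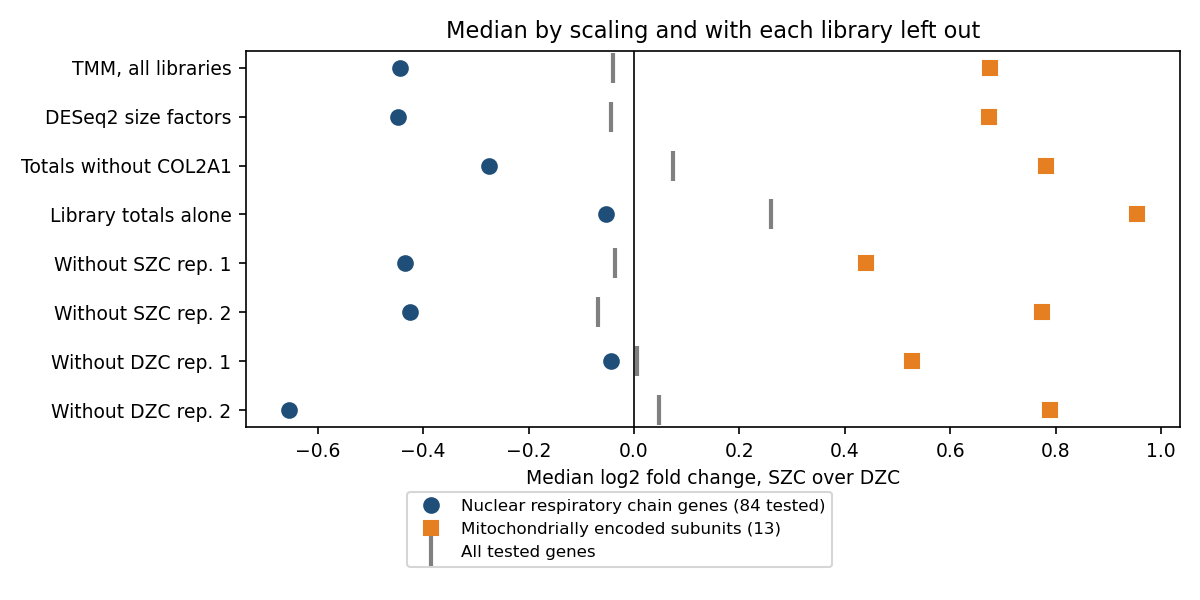
Median log2 fold change of SZCs over DZCs for the 84 nuclear genes, the 13 mitochondrially encoded genes and all genes tested, under 4 scalings and after leaving out single libraries. The nuclear median moves from -0.44 to -0.04 without DZC replicate 1 and to -0.05 with library totals, and the mitochondrially encoded median stays at 0.44 or above.

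The other genes of the pathway were read from lists of their names. Of 39 tested assembly factors outside the name rule, 0 were called and 34 had log2 fold changes below 0 (53.4% of all genes), with a median of -0.39, which was -0.16 without DZC replicate 1 and -0.04 with library totals. The lowest was *BCS1L*, which inserts the Rieske protein *UQCRFS1* into complex III, at 8.63 and 9.0 CPM in SZCs and 23.2 and 13.8 CPM in DZCs. Here the log2 fold change was -1.07 (SE 0.46, edgeR exact test FDR 0.33). The highest was *COA7*, with 0.68. Of 8 tested genes for cytochrome *c*, carriers and uncoupling, 1 was called (2.93% of all genes). This was *UCP2*, a carrier of the inner membrane, which was higher in SZCs, at 24.8 and 14.6 CPM against 2.36 and 4.71 CPM in DZCs. The fitted log2 fold change was 2.47 (SE 0.55, edgeR exact test FDR 0.00211), and it ranged from 2.04 to 3.08 when single libraries were left out. Without the replicate number in the model the quasi-likelihood test, which called 0 genes in all, gave *UCP2* an FDR of 0.231. With the replicate block that test gave an FDR of 0.0302, and DESeq2 gave 0.000569. *VDAC3*, a channel of the outer membrane, had the lowest log2 fold change of that list, -0.54.

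Regulators of nuclear respiratory genes showed 0 calls among 19 tested, with 7 log2 fold changes above 0 and 12 below and a median of -0.08, which was -0.16 without DZC replicate 1 and 0.23 with library totals. *NRF1* was at 8.86 and 6.46 CPM in SZCs and at 7.53 and 6.45 CPM in DZCs, and *GABPA* at 24.1 and 30.2 CPM against 32.7 and 38.8 CPM. *TFB2M*, which starts transcription of mitochondrial DNA, had the lowest log2 fold change of the list, -0.60, and *GABPB2* the highest, 0.60. *PPARGC1A*, a coactivator of these genes, and the receptors *ESRRB* and *ESRRG* did not pass the filter. Of 18 citric acid cycle and pyruvate genes 0 were called, with a median log2 fold change of -0.20, which was -0.03 without DZC replicate 1 and 0.14 with library totals. They ranged from -0.88 for *PC*, pyruvate carboxylase (edgeR exact test FDR 0.361), to 0.35 for *DLST*.

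Of 15 tested genes of the hypoxia response, to which *NDUFA4L2* also belongs, 1 was called (2.93% of all genes). *CA9*, a carbonic anhydrase of the cell surface, was at 40.1 and 19.1 CPM in SZCs and at 3.11 and 4.39 CPM in DZCs. The log2 fold change was 2.97 (SE 0.52, edgeR exact test FDR 2.11e-05), and it ranged from 2.34 to 3.41 when single libraries were left out. In edgeR's quasi-likelihood test the FDR of *CA9* was 0.162 without the replicate number and 0.0119 with it. In DESeq2 the FDR was 2.29e-06. The median of the list was 0.34, with 11 genes above 0 and 4 below (53.4% of all genes were below), and it was 0.19 without SZC replicate 1 and 0.62 with library totals. *HIF1A*, the oxygen-regulated subunit of HIF-1, had the lowest log2 fold change, -0.73, at 938 and 1064 CPM in SZCs and 1720 and 1593 CPM in DZCs (edgeR exact test FDR 0.581).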

How the data were processed

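RNA-Seq was performed by the authors with the SMART-Seq v4 Ultra Low Input kit and 75-bp single-end reads. They aligned these with STAR 2.5.2b to the Ensembl build UMD 3.1 of the *Bos taurus* genome and counted them per gene without regard to strand, so reads of antisense and sense genes that overlap are mixed. They deposited the counts without normalization. The authors' own table of fold changes and FDR values was read only for gene names. Columns were matched to libraries by name. Library totals and floors are given with the results.

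The analysis used R 4.3.3 and edgeR 4.0.16, with the exact test and Benjamini–Hochberg adjustment that the study's methods name. TMM scaling, edgeR's default filter (12857 genes kept) and default dispersion estimates (square root of the common dispersion 0.361) were used. Standard errors and 95% intervals follow from the negative binomial model at the gene-wise dispersion. Values with each library left out are fitted fold changes without a test. The alternatives were the quasi-likelihood test with and without the replicate number as a block, DESeq2 1.42.0, its size factors in edgeR, library totals, and filtering on over 1 CPM in 2 libraries or not at all. Library totals without *COL2A1* were added after the data were seen.

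The members and lists were chosen with earlier results of these data known. Genes named are, per complex, those at an unadjusted p below 0.05, the highest and lowest log2 fold change, the most counts, both genes of each pair of forms, all of complex II, *CYC1* and those that failed the filter. Of these, 1 gene is not reported here by name. Other genes of the complexes were named after their values were seen. From the other lists, called genes and the highest and lowest are named, and others were named after their values were seen. Scripts were tested on simulated data. Sequences, promoter motifs, gene lengths and positions on the authors' build were not used here, and the ATAC-Seq samples were not analysed here.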

Additional observations from a re-analysis of the deposited data

How the results depend on the processing

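Over all 9 fits with a test, 0 of the 84 genes (82 with the filter of more than 1 CPM) were called. Without a replicate block, edgeR's quasi-likelihood test called 0 genes in all, 0 higher in SZCs and 0 higher in DZCs, with 1126 at an unadjusted p below 0.05, against 377 in the exact test, of which 76.1% were higher in SZCs. The same test with the replicate number as a replicate block called 347 genes, 0 of them among the 84, of which 6 were at an unadjusted p below 0.05. Over genes, libraries of the same number deviated from the mean of their zone with a correlation of 0.42, but the libraries are known to share only a number. With library totals 44 genes were higher in DZCs, against 90, and 86.7% of the calls were higher in SZCs. The median of the 84 genes was then -0.053. Both DZC libraries were above both SZC libraries for 19 genes and the reverse held for 15 genes, against 40 and 0 with TMM. With totals without *COL2A1* the median was -0.28 and the reverse held for 1 gene. The shares of all genes under these scalings are not given here, so these counts cannot be compared with all genes. Left out in turn, the libraries gave medians from -0.66 to -0.043, the last without DZC replicate 1. With 1 library in a zone no overlap could be counted. Of 31 named genes that were tested, the sign of the log2 fold change turned for 15 without DZC replicate 1, for 0 with DESeq2 or either other filter, for 2 with the replicate block, for 7 with totals without *COL2A1* and for 12 with library totals, where all genes shifted by 0.30 and the median relative to all genes was -0.31. None of them passed the threshold in any fit with a test. The cause was not tested.

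Without *COL2A1* in the total, the nuclear genes other than *NDUFA4L2* took 0.452% and 0.435% of the counts in SZCs and 0.584% and 0.464% in DZCs, so that the zones no longer overlapped. *NDUFA4L2* took 0.152% and 0.0927% in SZCs and 0.0833% and 0.0399% in DZCs, against 0.141%, 0.0869%, 0.0629% and 0.0347% of all counts, and the mitochondrially encoded genes took 2.92% and 2.48% in SZCs and 1.38% and 1.91% in DZCs. With a floor of 1 count in place of 3, the log2 ratio of *COX4I2* to *COX4I1* was -11.98 in SZC replicate 1, from 1 count, and its upper bound was -12.33 in DZC replicate 1. The upper bound for *COX6A2* to *COX6A1* was -11.02 and -11.12 in SZCs and -11.50 and -11.20 in DZCs. Of the 84 genes, 79 had at least 100 counts in each library, and the 95% intervals reached 0.65 or more to either side of each log2 fold change.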

Other observations

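Other housekeeping families, chosen by name after the values above were seen, are described here with no test of the families. The genes of the mitochondrial ribosome, which translates the mitochondrially encoded subunits, had a median log2 fold change of -0.47 over 74 genes, 72 of them below 0. None was called by edgeR's exact test, 2 were at an unadjusted p below 0.05 (9.09% of all genes), and both DZC libraries were above both SZC libraries for 49 of the 74 (20.5% of all genes). DZC replicate 1 was the highest library for 64 of them (36.3% of all genes), and without it the median was -0.17. Proteasome subunits had a median of -0.47 over 38 tested genes, and -0.13 without DZC replicate 1. Subunits of the chaperonin TRiC and of prefoldin had a median of -0.39 over 13 genes, which was -0.35 without DZC replicate 1. With library totals in place of TMM the medians were -0.11 for the mitochondrial ribosome, -0.10 for the proteasome, -0.05 for the chaperonin and prefoldin and 0.27 for the cytosolic ribosome, beside 0.26 over all genes. Proteins of the cytosolic ribosome had a median of -0.11 over 86 tested genes, which became 0.37 without DZC replicate 1. The cytosolic ribosomal genes, of which 83.7% were highest in DZC replicate 1, had the largest median log2 ratio of DZC replicate 1 to DZC replicate 2 of these families, 0.88.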
